A study of Mus musculus with 12 samples.

Results

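De novo pyrimidine nucleotide synthesis was followed through 10 enzyme genes in mouse acute myeloid leukaemia cells before, shortly after and later after chemotherapy. The genes were taken by symbol from the deposited gene tables: Cad, Dhodh and Umps, which make UMP, Cmpk1 and Nme1, which raise pyrimidine monophosphates to triphosphates, Ctps and Ctps2, which make CTP, and Tyms, Dctd and Dut, which make and protect the thymidylate supply. All 10 were found among 24881 entries with a usable value in every library, and all 10 passed the filter on low values. RNA-seq had been run on GFP+ leukaemia cells sorted from bone marrow, with 1 mouse per library. Every mouse carried MLL-AF9 transgenic leukaemia, in which a fusion oncoprotein of human leukaemia drives growth, so the vehicle-treated animals are leukaemic controls and not healthy ones. The vehicle group held 5 mice. Mice given induction chemotherapy, doxorubicin with cytarabine, were sampled 3 days after it ended (iCT, n = 3) or 10 days after it ended (relapse, n = 4). The sources used here give neither the age of the mice nor whether the leukaemias trace back to 1 clone.

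Cells build pyrimidine rings from glutamine, bicarbonate and aspartate. CAD, a single large protein, carries out the opening reactions, DHODH in the inner mitochondrial membrane oxidises dihydroorotate and hands the electrons to ubiquinone, and UMPS attaches the ribose phosphate and yields UMP. UTP, CTP and the deoxynucleotides dCTP and dTTP all derive from UMP, and proliferating blood cells draw on this route for RNA, DNA, UDP-sugars and phospholipids. Cytarabine is itself an analogue of deoxycytidine, and blocking DHODH makes myeloid leukaemia cells mature in laboratory models.

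Promoter letters are shown for the members on whose values the comparisons turned (Cad, Cmpk1 and Nme1) and for Tyms, the other member with an E-box. They are RefSeq sequences on GRCm38.p6, written 5′ to 3′ on the strand of the gene. For Cad, Cmpk1 and Tyms the 250 bases before the annotated start are given, and for Nme1 only 30 bases. Capitals mark an E-box (CACGTG, the letters bound by MYC-family factors) or a GC box (GGGCGG, bound by SP-family factors), searched on both strands, so that CCGCCC is a GC box on the other strand. The Cad stretch is chr5:31054530-31054779 (+), the Cmpk1 stretch chr4:114987229-114987478 (−), the Nme1 stretch chr11:93968273-93968302 (−) and the Tyms stretch chr5:30073626-30073875 (−).
Cad: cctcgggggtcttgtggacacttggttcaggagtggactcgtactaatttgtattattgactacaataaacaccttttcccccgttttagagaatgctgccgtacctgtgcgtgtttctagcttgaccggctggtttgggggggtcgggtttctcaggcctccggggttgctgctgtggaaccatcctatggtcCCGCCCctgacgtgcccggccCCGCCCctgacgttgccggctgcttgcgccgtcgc
Cmpk1: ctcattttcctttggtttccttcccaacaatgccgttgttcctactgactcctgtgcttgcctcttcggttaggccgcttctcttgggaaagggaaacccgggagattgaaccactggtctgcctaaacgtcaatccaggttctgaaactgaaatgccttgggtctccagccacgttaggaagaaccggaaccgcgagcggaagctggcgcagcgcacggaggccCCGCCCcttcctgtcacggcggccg
Nme1: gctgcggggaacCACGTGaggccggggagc
Tyms: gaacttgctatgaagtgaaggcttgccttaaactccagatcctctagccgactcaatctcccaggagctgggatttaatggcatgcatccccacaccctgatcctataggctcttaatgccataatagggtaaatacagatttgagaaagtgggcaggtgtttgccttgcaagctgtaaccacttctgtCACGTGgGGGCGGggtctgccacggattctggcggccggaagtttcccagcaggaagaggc

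The Cad stretch held 2 GC boxes, beginning at -56 and -35 from the start, and the Cmpk1 stretch held 1, at -25. Nme1 had 2 annotated starts with an E-box before each: the one printed began at -18 from the upstream start, and the other, not printed, at -29 from the downstream start. In the Tyms stretch an E-box at -61 was followed by a GC box at -54. A RefSeq promoter was matched for 9 of the 10 members, the exception being Dhodh. An E-box occurred in 2 of the 9 members and in 6.02% of all 32851 promoter windows, and a GC box in 7 of the 9 members and in 32.7% of windows. The E2F letters TTTCCCGC, TTTGGCGC, TTTCGCGC and TTTGCCGC occurred in 0 of the 9 members and in 1.86% of windows. These are matches of letters in this window alone. Members with several annotated starts had more windows than members with 1. A member was counted if any of its windows matched, so these counts and the shares of single windows are not like for like.

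Levels are given in FPKM, a count of fragments divided by the length of the transcript and by the size of the library, so that genes can be set side by side within a library. Nme1, a nucleoside diphosphate kinase, had the highest level of the 10 in all 12 libraries, with a mean of 232 FPKM. Dut (90.4), which removes dUTP, and Cmpk1 (87.7), the UMP and CMP kinase, held ranks 2 and 3 in every library and exchanged places between libraries. Umps (51.6) ranked 4 or 5. Ctps (34.3), Cad (31.2) and Tyms (26) followed, with Cad anywhere between ranks 4 and 7, so the order of these neighbours was not stable from mouse to mouse. Dhodh (17.1), Ctps2 (12.4) and Dctd (9.9), the dCMP deaminase, came 8, 9 and 10 in every library. Nme1 lay above 95.8% of the 11019 genes tested in mean level, and Dctd above 45.8%.

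The members differed widely in how much they varied among the mice. Across the 12 libraries Ctps had a coefficient of variation of 6.79%, and 0.499% of tested genes had a lower one. Dhodh (10.4%), Ctps2 (11%) and Umps (11.6%) also varied little, against a median of 23.9% over all tested genes. Cad (24.6%), Cmpk1 (21.5%), Dctd (20.9%) and Nme1 (19%) varied most among the members.

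**Figure D1:**
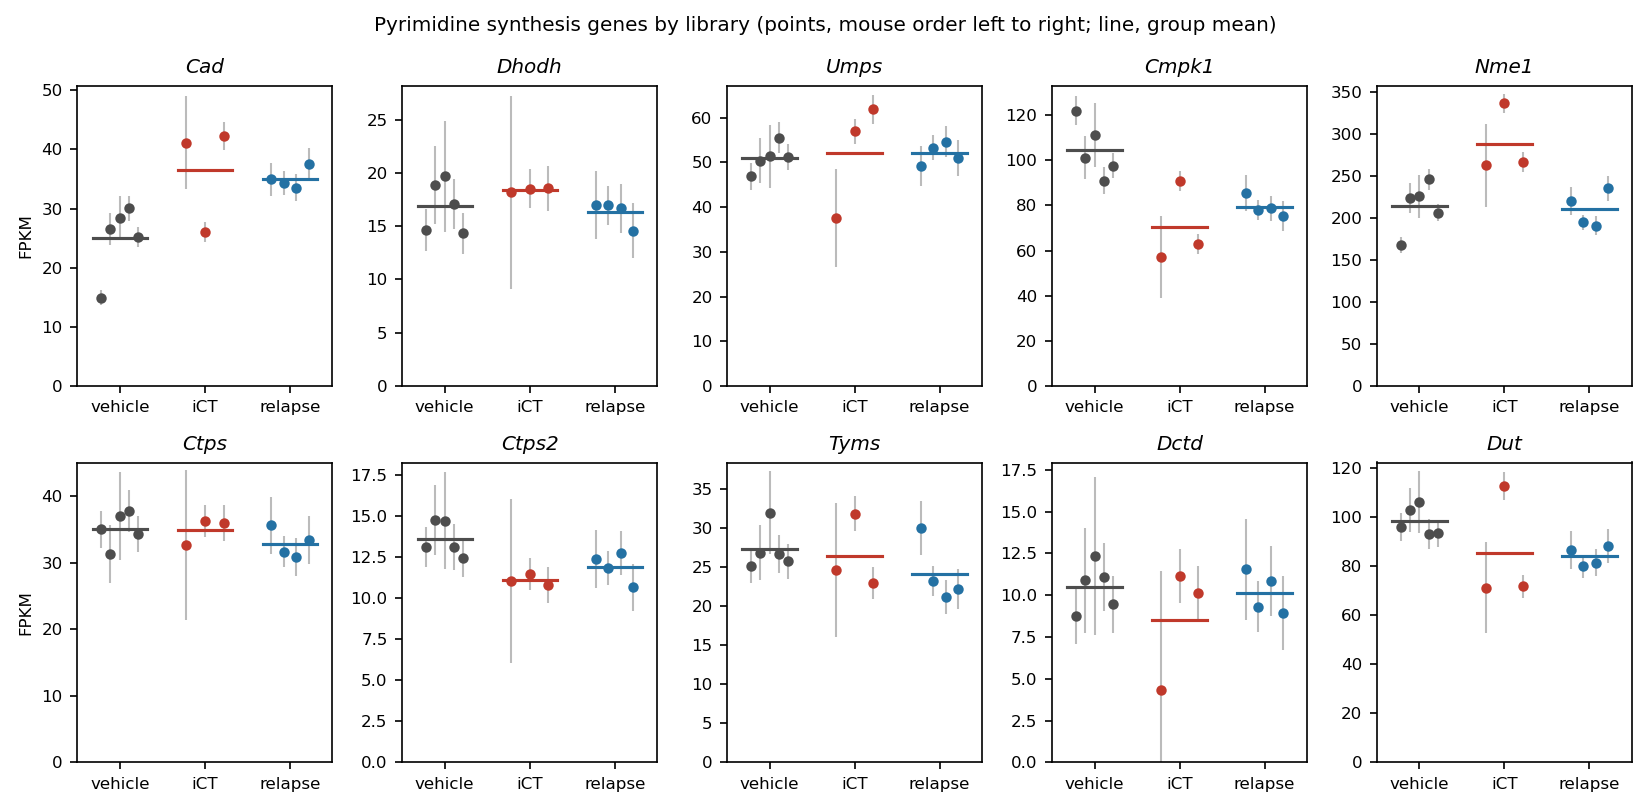
FPKM of the 10 genes (1 panel each, y axis from 0) in each mouse of the vehicle, iCT and relapse groups. Points are libraries, thin bars the interval deposited with each value (taken as 95%) and horizontal lines the group means. The iCT mice lie below the vehicle mice for Cmpk1 and above them for Nme1, and the bars are widest in iCT mouse 1.

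Sequencing depth was approximated by implied fragments, taken from the deposited intervals as if these were 95% intervals and held counting error only. Of low values, 35.1% to 42% per library gave whole fragments, so implied fragments are not read counts. The implied depth ran from 361914 fragments in iCT mouse 1 to 8359793 in iCT mouse 2, with 1225254 to 7484368 in the other 10 libraries. In iCT mouse 1 the members rested on 1.5 (Dctd) to 113 (Nme1) implied fragments. In the other libraries the lowest values were 27.4 for Dctd and 317 for Nme1. All 10 leukaemia markers were detected in every library, with the lowest values 8.45 FPKM for Meis1 and 8.54 for Csf1r, and Hoxa9 was between 41.7 and 75.8. Their summed level, carried mostly by Elane and Mpo, was 7.16e+03 to 9.37e+03 FPKM in vehicle, 6.08e+03 to 8.77e+03 in iCT and 6.06e+03 to 9.35e+03 in relapse. Within the list Cebpa was lower in iCT (19.7, 29.8 and 33.8 FPKM) than in every vehicle mouse (45.1 to 60.3), and Spi1 was higher (279 to 344 against 226 to 277).

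Osteoclast and macrophage markers stood higher, and erythroid and B cell markers lower, in iCT by their sums. The 7 osteoclast markers summed to 143 to 662 FPKM in iCT against 11.7 to 26.6 in vehicle and 14.3 to 77.3 in relapse, and the 8 tissue macrophage markers to 119 to 246 against 60.8 to 101 and 39.8 to 52.2. Of the macrophage markers Vcam1 did not follow the sum, with 45.4 to 47.5 FPKM in iCT inside the vehicle range of 42.2 to 94. The 9 neutrophil markers summed to 1.31e+04 to 1.76e+04 in iCT, 3.63e+03 to 1.39e+04 in vehicle and 6.23e+03 to 1.48e+04 in relapse, so that the groups overlapped. S100a8 and S100a9 carried that sum. Mmp9 was at 328, 93.8 and 193 FPKM in iCT, above all vehicle (10.9 to 49) and relapse (28.9 to 87.9) mice. Cxcr2 was at 13.7, 6.11 and 13.2 in iCT against 1.65 to 6.93 in vehicle. Camp, Ltf, Mmp8 and Ngp in iCT lay inside the vehicle range. Retnlg was at 5.92, 17.5 and 46.1 FPKM in iCT against 16.6 to 190 in vehicle. The 8 erythroid markers summed to 7.66 to 13.5 in iCT, 16.7 to 488 in vehicle and 58.4 to 199 in relapse. B cell markers, with Cd79b as nearly all of the sum, came to 16.9 to 21.1 in iCT, 23.7 to 44.3 in vehicle and 22.2 to 34.8 in relapse, stromal markers to between 10.9 and 38.2 in all libraries, and T cell markers to at most 5.51, with all 6 at 0 in iCT mouse 1. No marker of these lists was at 0 in every library. Their part in the results on the iCT group was not tested, and in sorted bulk samples fewer cells of a type and less RNA per cell cannot be told apart.

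The question of the first comparison was how the enzymes stood 3 days after chemotherapy. Cmpk1 was the one member that passed the test, and it was lower in iCT than in vehicle. Nme1, the kinase that acts on the product of Cmpk1, had its 3 iCT values above all 5 vehicle values, but its adjusted p missed the threshold. Ctps and Umps had estimated changes of 0.00 on the log2 scale. In all, 1 of 10 members was called, beside 9.62% of all genes tested, so the share of members called was close to the background. On the lower side it was 1 of 10, beside 6.31%. At an unadjusted p under 0.05 there were 4 members (Cad, Cmpk1, Nme1 and Ctps2), beside 29.8% of all genes. Groups did not overlap for 3 of 10 members (Cmpk1, Ctps2 and Nme1), beside 16.1% of all genes.

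Cmpk1 (chr4:114960613-114987228, minus strand) was at 122, 101, 111, 91 and 97.7 FPKM in vehicle mice 1 to 5. It was at 57.3, 90.8 and 63.1 FPKM in the iCT mice and at 85.6, 78, 78.8 and 75.4 FPKM in the relapse mice. Every iCT and every relapse value was under every vehicle value, although iCT mouse 2 came within 1 FPKM of the lowest vehicle mouse. Group means were 105 ± 12.2 (SD, n = 5) in vehicle, 70.4 ± 17.9 (n = 3) in iCT and 79.4 ± 4.37 (n = 4) in relapse. In iCT the level of log2(FPKM + 1) fell by 0.59 (SE 0.14, 0.666-fold, 95% interval -0.89 to -0.28) with a limma adjusted p of 0.0248. The call was lost without vehicle mouse 3 (-0.56, limma adjusted p 0.0551), without iCT mouse 1 (-0.45, 0.0833) and without iCT mouse 3 (-0.52, 0.0597), and without iCT mouse 2 the change was -0.78 (0.00216). It was also lost with array weights (-0.51, 0.059), without the relapse libraries in the fit (-0.59, 0.0832), where 4.15% and 3.27% of all genes passed, and once trends with length and base composition of the transcripts were taken out (-0.33, 0.0575). The Cmpk1 transcript has a GC content of 39.4%, higher than that of only 2.07% of tested genes.

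Relapse and iCT are both set against the same 5 vehicle libraries, so their Cmpk1 changes share those controls. In relapse the change from vehicle was -0.39 (SE 0.13, 95% interval -0.67 to -0.11, limma adjusted p 0.207), which did not pass the test. It passed with array weights (-0.33, limma adjusted p 0.0329) and when the iCT libraries were left out of the fit (-0.39, 0.0382), where 8.81% and 5.65% of all genes passed. Between relapse and iCT the Cmpk1 difference was 0.20 (SE 0.15, 95% interval -0.12 to 0.52, limma adjusted p 0.382).

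**Figure D2:**
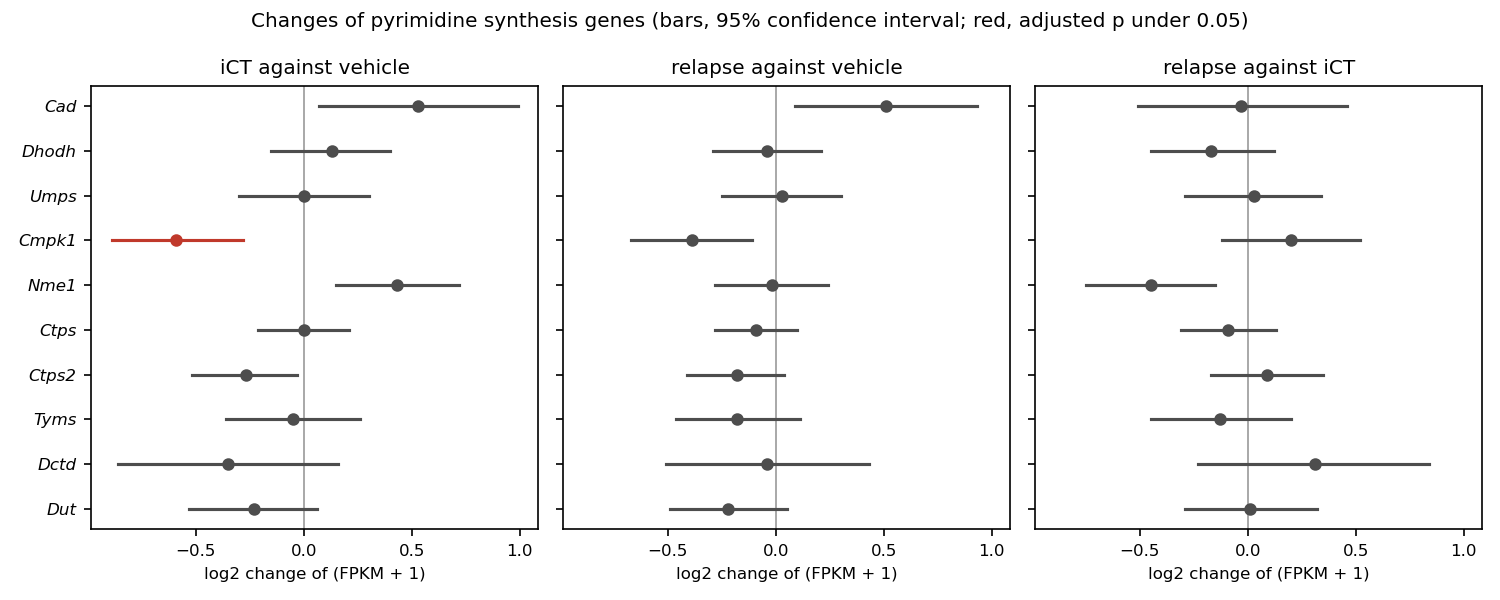
Change of log2(FPKM + 1) for each member (rows) in the 3 comparisons (panels), with points for the limma estimate and bars for its 95% interval. Red marks an adjusted p under 0.05, which Cmpk1 reached in iCT against vehicle (-0.59), and all bars lie between -0.89 and 0.99.

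Nme1 (chr11:93958925-93968521, minus strand) makes nucleoside triphosphates from diphosphates. It was at 168, 224, 226, 246 and 206 FPKM in the vehicle mice, at 263, 337 and 267 in the iCT mice and at 221, 195, 191 and 236 in the relapse mice. The iCT values were above all values of both other groups, which overlapped each other. Means were 214 ± 29.4 (SD, n = 5), 289 ± 41.6 (n = 3) and 211 ± 21.3 FPKM (n = 4). The iCT difference from vehicle was 0.43 (SE 0.13, 95% interval 0.15 to 0.72), with a limma adjusted p of 0.0565. From iCT to relapse it was -0.45 (SE 0.14, 95% interval -0.75 to -0.15, limma adjusted p 0.0578), and from vehicle to relapse -0.02 (SE 0.12, 0.975).

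The Nme1 comparisons sat beside the threshold and crossed it with the scaling of the libraries. With median-of-ratios scaling the iCT against vehicle difference was 0.48 (limma adjusted p 0.025) and relapse against iCT -0.57 (0.015), and with quantile normalization they were 0.48 (0.0137) and -0.45 (0.0225). After removal of length and GC trends they were 0.57 (0.0118) and -0.63 (0.00975). Relapse against iCT also passed without vehicle mouse 1 (-0.45, limma adjusted p 0.0316) and without iCT mouse 3 (-0.50, 0.0499). These scalings moved the median change of all genes in relapse against iCT from 0.16 to 0.06 and 0.05. Nme1 has a median transcript length of 493 bases, longer than 2.87% of tested genes.

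Nme1 and its neighbouring paralogue Nme2, another nucleoside diphosphate kinase, are closely similar, and reads that fit both may have been divided between them, so their values are uncertain. Nme2 was at 730, 831, 751, 824 and 762 FPKM in vehicle, 568, 1.06e+03 and 699 in iCT, and 798, 670, 661 and 837 in relapse, with the groups overlapping. The ratio of Nme1 to Nme2 was 0.23 to 0.301 in vehicle, 0.317 to 0.463 in iCT and 0.277 to 0.291 in relapse. Its geometric mean was 0.273 in vehicle and 0.383 in iCT, with no overlap (two-sided exact permutation p 0.0357, the smallest that 3 against 5 allows, and 0.107 after adjustment over the 12 ratio comparisons made). In relapse it was 0.285, below iCT with no overlap (exact permutation p 0.0571, the smallest that 4 against 3 allows, adjusted 0.137). No ratio comparison passed after adjustment. The ratio comparisons had not been planned, and the adjustment does not correct for the choice of pairs. This ratio holds the Nme1 values compared above, so it is no separate evidence.

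Cad (chr5:31054780-31078479, plus strand) encodes the trifunctional enzyme that opens the pathway. It was at 14.9, 26.5, 28.5, 30 and 25.1 FPKM in vehicle, at 41.1, 26.1 and 42.3 in iCT and at 34.9, 34.3, 33.5 and 37.5 in relapse. The 4 relapse values lay close together and above all vehicle values, while iCT mouse 2 fell inside the vehicle range and the other two iCT mice had the highest values of the series. Vehicle mouse 1 was the lowest of all 12. Means were 25 ± 5.96 (SD, n = 5) in vehicle, 36.5 ± 9.06 (n = 3) in iCT and 35.1 ± 1.73 FPKM (n = 4) in relapse.

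Neither Cad difference from vehicle passed the test, and both use the same controls. In iCT the estimate was 0.53 (SE 0.21, 95% interval 0.07 to 0.99, limma adjusted p 0.117), and in relapse it was 0.51 (SE 0.19, 95% interval 0.09 to 0.93, limma adjusted p 0.258). Without vehicle mouse 1 they were 0.36 (limma adjusted p 0.156) and 0.34 (0.443). Without iCT mouse 2 the iCT estimate was 0.75 and passed (limma adjusted p 0.0268), beside 24.8% of all genes. It also passed after removal of length and GC trends (0.44, limma adjusted p 0.046), beside 11.4%. That removal left 0.15 (limma adjusted p 0.718) in relapse. The Cad transcript is longer than that of 96.7% of tested genes.

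Dhodh (chr8:109593248-109608673, minus strand), the mitochondrial dehydrogenase, was at 14.7, 18.9, 19.7, 17.1 and 14.4 FPKM in vehicle, 18.2, 18.5 and 18.6 in iCT and 17, 17, 16.7 and 14.6 in relapse. The iCT values sat inside the vehicle range and above all relapse values. The differences were 0.13 (SE 0.13, limma adjusted p 0.518) for iCT against vehicle, -0.04 (SE 0.12, 0.912) for relapse against vehicle and -0.17 (SE 0.13, 0.407) for relapse against iCT. Umps (chr16:33955012-33967003, minus strand), whose product completes UMP, was at 46.9, 50.4, 51.3, 55.5 and 51.2 FPKM in vehicle, 37.5, 56.9 and 61.9 in iCT and 49.2, 53.3, 54.6 and 51 in relapse. The iCT mice held both the lowest and the highest Umps value, with mouse 1 the lowest. The Umps differences were 0.00 (SE 0.14, 95% interval -0.30 to 0.30, limma adjusted p 0.996), 0.03 (SE 0.13, 0.956) and 0.03 (SE 0.15, 0.913) in the same order.

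Cad was also set against the 2 enzymes that follow it, Dhodh and Umps. The ratio of Cad to Umps was 0.318 to 0.555 in vehicle and 0.614 to 0.736 in relapse, and that of Cad to Dhodh was 1.02 to 1.75 and 2.01 to 2.57. The relapse and vehicle ranges did not overlap for either ratio, and each had a two-sided exact permutation p of 0.0159, the smallest that 4 against 5 allows, and 0.0952 after adjustment over 12. In iCT the Cad to Umps ratio ran from 0.458 to 1.1 and the Cad to Dhodh ratio from 1.41 to 2.28, both overlapping vehicle (exact permutation p 0.179 and 0.143). These pairs of genes were chosen after the tables had been seen. The ratios were not corrected for trends with transcript length and GC content. Median transcript lengths are 6509 bases for Cad, 3484 for Umps and 1455 for Dhodh. Removal of those trends left the Cad change in relapse against vehicle at 0.15 (limma adjusted p 0.718).

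**Figure D3:**
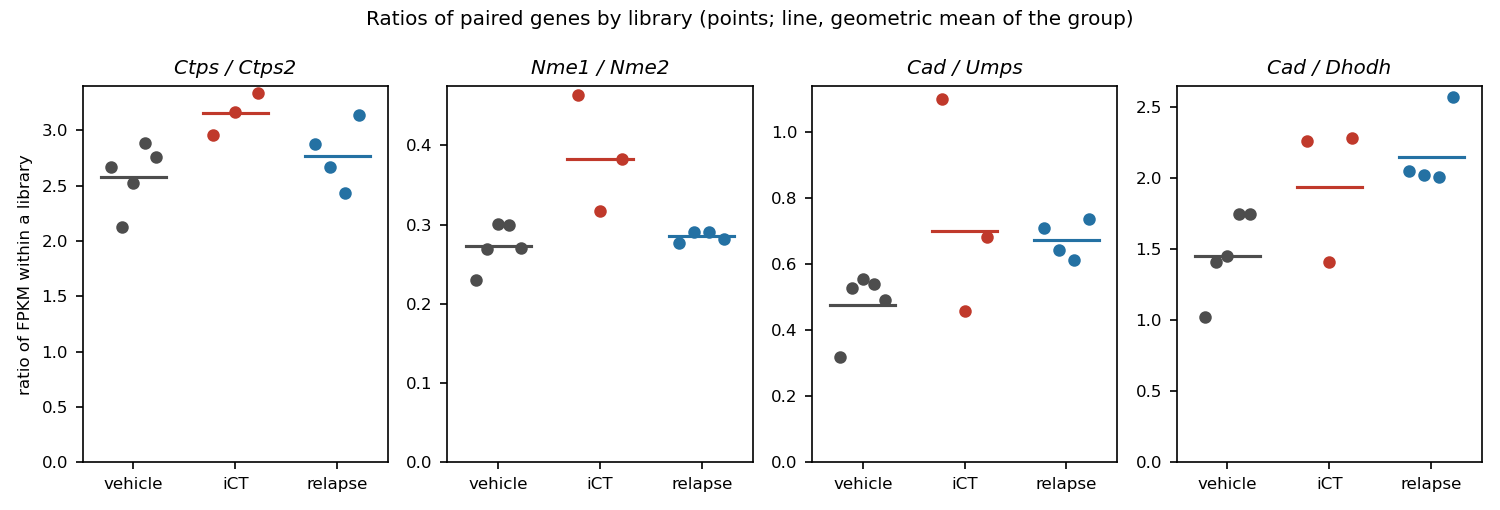
Ratio of the FPKM of the first gene to that of the second (y axis, linear from 0) for 4 gene pairs in each mouse, by group. Each point is 1 library and each line the geometric mean of a group. The iCT points lie above all vehicle points for Ctps to Ctps2 and Nme1 to Nme2, and the relapse points lie above all vehicle points for Cad to Umps and Cad to Dhodh.

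CTP is made from UTP by 2 synthases. Ctps (chr4:120539868-120570276, minus strand), the isoform known for its need in dividing lymphocytes, was at 31.3 to 37.8 FPKM in vehicle (median 35), 32.7 to 36.3 in iCT (median 36) and 30.9 to 35.6 in relapse (median 32.5). The groups overlapped throughout, and the differences were 0.00 (SE 0.10, 95% interval -0.21 to 0.21, limma adjusted p 0.985) for iCT and -0.09 (SE 0.09, 0.698) for relapse against vehicle. Ctps2 (chrX:162901560-163034541, plus strand) was at 13.1, 14.7, 14.7, 13.1 and 12.5 FPKM in vehicle, 11, 11.5 and 10.8 in iCT and 12.4, 11.8, 12.7 and 10.7 in relapse. Its iCT values were below all vehicle values, at a difference of -0.27 (SE 0.11, 95% interval -0.52 to -0.03) that did not pass (limma adjusted p 0.132). In relapse it was -0.18 (SE 0.10, limma adjusted p 0.454). Ctps made up 68% to 74.3% of the summed FPKM of both synthases in vehicle, 74.8% to 77% in iCT and 70.8% to 75.8% in relapse. The geometric mean ratio was 2.58 in vehicle and 3.15 in iCT, with no overlap (two-sided exact permutation p 0.0357, adjusted 0.107 over 12), and 2.77 in relapse. This ratio was also unplanned, did not pass after adjustment and holds the Ctps2 values already compared.

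None of the 3 thymidylate genes passed the test in any comparison. Tyms (chr5:30058200-30073625, minus strand), thymidylate synthase, was at 25.2 to 32 FPKM in vehicle (median 26.7), 23 to 31.8 in iCT (24.6) and 21.1 to 30 in relapse (22.7), and the differences from vehicle were -0.05 (SE 0.14, limma adjusted p 0.832) and -0.18 (SE 0.13, 0.574). Dctd (chr8:48099092-48141667, plus strand), which supplies dUMP from dCMP, was at 8.73 to 12.4 FPKM in vehicle, 4.36, 11.1 and 10.1 in iCT and 8.91 to 11.5 in relapse. The lowest Dctd value, in iCT mouse 1, rested on 1.5 implied fragments and had a deposited interval of 0 to 11.5 FPKM. The iCT difference was -0.35 (SE 0.24, 95% interval -0.86 to 0.16, limma adjusted p 0.327) and 0.02 without that mouse.

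Dut (chr2:125247248-125259049, plus strand), the dUTPase that keeps uracil out of DNA, was at 96.1, 103, 106, 93.1 and 93.5 FPKM in vehicle, 71.4, 113 and 71.9 in iCT and 86.8, 80, 81.6 and 88.2 in relapse. In iCT, mouse 2 had the highest Dut value of the series and the other two mice the lowest. All 4 relapse values were below all vehicle values. The differences from vehicle were -0.23 in iCT (SE 0.14, 95% interval -0.53 to 0.06, limma adjusted p 0.255) and -0.22 in relapse (SE 0.12, 95% interval -0.49 to 0.05, 0.44). The iCT estimate passed without iCT mouse 2 (-0.45, limma adjusted p 0.00732), where 24.8% of all genes passed. It was -0.12 without iCT mouse 1 and -0.13 without iCT mouse 3.

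For relapse against vehicle, the question was whether the enzymes stood apart from untreated leukaemia 10 days after chemotherapy. No member passed (0 of 10), beside 0% of all genes tested, where the lowest limma adjusted p of any gene was 0.173. At an unadjusted p under 0.05 there were 2 members (Cad and Cmpk1), beside 14.6% of all genes. The groups did not overlap for 3 of 10 members, Cad on the higher side and Cmpk1 and Dut on the lower, beside 13.7% of all genes. The median change of the members was -0.07, with 2 above 0 and 8 below, against a median of 0.06 over all genes.

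From iCT to relapse 0 of 10 members passed in limma, beside 9.72% of all genes, and 1 member (Nme1) had an unadjusted p under 0.05, beside 29% of all genes. Groups did not overlap for 2 of 10 members, Dhodh and Nme1, both lower in relapse, beside 23.3% of all genes. The members' median change was -0.01 with 5 above and 5 below 0, against 0.16 over all genes. In iCT against vehicle the corresponding medians were -0.03, with 3 above and 7 below 0, and -0.08. The direction of these small medians is not fixed, since median-of-ratios scaling gave 0.02 for the members in iCT against vehicle. The remaining relapse against iCT estimates ran from -0.13 for Tyms to 0.31 for Dctd. Across the 30 main estimates for 10 members and 3 comparisons, every 95% interval of log2(FPKM + 1) lay within a 2-fold change in either direction. The outermost bounds were -0.89 and 0.99. This holds for the main fit only, and without iCT mouse 2 the iCT against vehicle estimates of Cad and Cmpk1 were 0.75 and -0.78.

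The genes around the pathway were grouped by role, with all counts over genes that passed the filter. In uptake and salvage, the route that recycles uridine and cytidine, 0 of 8 genes passed in any of the 3 comparisons. The smallest p values in iCT against vehicle belonged to the uridine-cytidine kinase genes Uckl1 (-1.02, limma adjusted p 0.0905) and Uck2 (0.26, 0.106). Uckl1 was at 2.99, 13.6 and 15.7 FPKM in iCT and 15.4 to 24.8 in vehicle, with the lowest value in iCT mouse 1. Breakdown enzymes and nucleotidases (0 of 11), suppliers of glutamine, aspartate and PRPP (0 of 13), ubiquinone synthesis, which feeds DHODH its electron acceptor (0 of 11), regulators of CAD such as Myc and Mtor (0 of 8) and users of UTP and CTP (0 of 10) also held no gene that passed in any comparison. In iCT against vehicle the medians of these 5 groups were -0.07, 0.01, 0.08, 0.12 and -0.26, beside -0.08 over all genes. In relapse against vehicle they were 0.10, 0.08, -0.11, 0.22 and -0.06, beside 0.06. There all 8 CAD regulators had estimates above 0. Mtor (0.65, limma adjusted p 0.18) and Myc (0.39, 0.303) were higher in every relapse mouse than in every vehicle mouse. Groups did not overlap for 13.7% of all genes in that comparison. The counts of 0 genes that passed did not hold when single iCT or vehicle libraries were left out. Then 1 gene passed in salvage (without iCT mouse 2 or 3), CAD regulators (iCT mouse 2 or 3) and ubiquinone synthesis (iCT mouse 2). Up to 2 passed in breakdown (vehicle mouse 2 or iCT mouse 1, 2 or 3), precursors (iCT mouse 2 or 3) and users of UTP and CTP (iCT mouse 2 or 3). Of all genes, 24.8% passed without iCT mouse 2 and 11.1% without iCT mouse 3 in iCT against vehicle. In relapse against iCT the shares were 14.4% and 17%. Without vehicle mouse 2 and iCT mouse 1, 6.71% and 6.26% passed in iCT against vehicle. Other settings also let up to 2 genes pass in these groups, beside 5.65% to 11.4% of all genes.

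Of 10 genes of deoxynucleotide supply, 1 rose and 1 fell in iCT against vehicle, where 9.62% of all genes were called. Rrm2, the regulated subunit of ribonucleotide reductase, which turns CDP and UDP into deoxynucleotides, was at 84.5, 81.5, 87.2, 80.7 and 88.8 FPKM in vehicle, 105, 135 and 125 in iCT and 73.4, 90.6, 71.7 and 79.3 in relapse. All iCT values were above those of both other groups. Rrm2 rose by 0.51 (SE 0.10, limma adjusted p 0.0127) and fell by 0.62 from iCT to relapse (limma adjusted p 0.00663). That fall was the 1 call of this group there, beside 9.72% of all genes. Rrm2 passed under 21 of 22 alternatives in each comparison. The exceptions were the block on mouse number (0.52, limma adjusted p 0.0795) and the fit of the compared groups alone (-0.62, 0.0519). In relapse against iCT 2 genes of the group passed without iCT mouse 2 or 3, beside 14.4% and 17% of all genes. The same number passed under median-of-ratios and quantile scaling, beside 9.15% and 8.16%. Cdadc1, a cytidine and dCMP deaminase, fell by 0.69 in iCT (limma adjusted p 0.0181), a call lost without the relapse libraries in the fit (0.065) and with the block on mouse number (0.119).

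Among the other nucleotide kinases, Nme6, a mitochondrial relative of Nme1, fell by 0.59 in relapse against iCT (limma adjusted p 0.0348). That Nme6 call was lost when vehicle mouse 5, iCT mouse 1 or 2, or relapse mouse 2, 3 or 4 was left out (limma adjusted p 0.0539 to 0.0914), and with no filter (0.0552), array weights (0.104), no vehicle libraries in the fit (0.0582) or the block (0.113).

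In the folate cycle that serves Tyms, 1 of 10 genes fell in iCT against vehicle and 1 rose in relapse against iCT. Both were Ggh, the hydrolase that trims polyglutamate from folates. Of all genes, 9.62% and 9.72% were called in these comparisons. Ggh was at 41.8, 31.9, 40.9, 31.8 and 33.2 FPKM in vehicle, 12.8, 19.8 and 11.9 in iCT and 22.8, 26.8, 21.2 and 27.9 in relapse. The 3 groups did not overlap, with relapse between the others. Of all genes, 16.1%, 13.7% and 23.3% showed no overlap in iCT against vehicle, relapse against vehicle and relapse against iCT. The Ggh difference of relapse from vehicle was -0.52 (limma adjusted p 0.182), which did not pass the test. Ggh fell by 1.24 in iCT (SE 0.17, limma adjusted p 0.0014) and passed under all 22 alternatives. The count of folate genes called in iCT against vehicle was 3 under median-of-ratios scaling, after length and GC removal or without iCT mouse 2. Of all genes, 10.1%, 11.4% and 24.8% passed in these fits. The folate count was 2 under quantile scaling, with the filter at FPKM 5, or without vehicle mouse 4, iCT mouse 3 or relapse mouse 4. There 9.97%, 11.1%, 6.62%, 11.1% and 8.04% of all genes passed. Ggh rose by 0.72 in relapse against iCT (limma adjusted p 0.0259). That call was lost without iCT mouse 1, iCT mouse 3, relapse mouse 2 or relapse mouse 4 (limma adjusted p 0.0538 to 0.0742). It was also lost under median-of-ratios (0.0579) and quantile scaling (0.0553), without the vehicle libraries in the fit (0.0979) and with the block (0.108).

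Of 22 S phase genes, 1 rose and 1 fell in iCT against vehicle, where 9.62% of all genes were called. Fen1, the flap endonuclease of lagging-strand synthesis, rose by 0.42 (limma adjusted p 0.0274), and Top2a, a topoisomerase and target of doxorubicin, fell by 0.57 (0.0214). Top2a was at 55.5 to 74.7 FPKM in vehicle, 43.6, 46 and 43.5 in iCT and 65 to 95.1 in relapse. Its rise of 0.80 from iCT to relapse was the 1 call of the 22 genes there (limma adjusted p 0.00589), beside 9.72% of all genes. Without vehicle mouse 5 the iCT calls of Top2a (limma adjusted p 0.052) and Fen1 (0.059) were lost, and Fen1 was also lost without iCT mouse 3 (0.0598). Array weights (limma adjusted p 0.0581 and 0.0631) and the block (0.151 and 0.135) ended both calls, and a fit without the relapse libraries that of Fen1 (0.0804). Without iCT mouse 2, 6 of the 22 passed in iCT against vehicle, beside 24.8% of all genes in that fit, and 4 in relapse against iCT, beside 14.4%. Without iCT mouse 3, 3 passed in relapse against iCT, beside 17%. The medians of the 22 genes were -0.03, 0.05 and 0.04 in iCT against vehicle, relapse against vehicle and relapse against iCT. In relapse against vehicle 0 genes of any group passed in limma, and with array weights up to 2 of a group did, beside 8.81% of all genes.

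**Figure D4:**
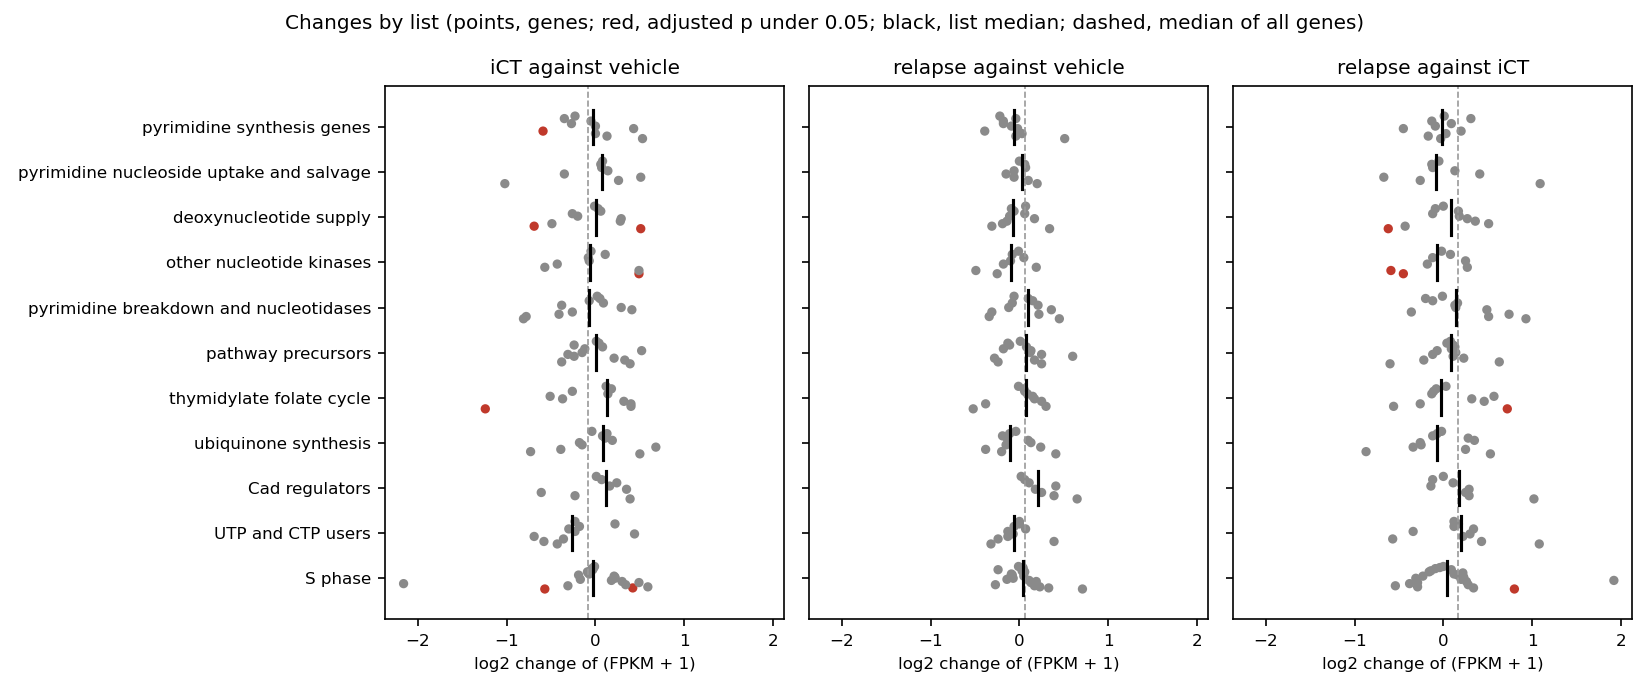
Change of log2(FPKM + 1) of every tested gene (points) in the pyrimidine synthesis genes and 10 neighbouring gene groups (rows) in the 3 comparisons (panels), with the median of each gene group as a black mark, the median of all genes as a dashed line and genes that passed the test in red. Ggh (-1.24 in iCT) lies farthest from 0 among the genes that passed, and most points lie within 1 log2 unit of 0.

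The genes whose log2(FPKM + 1) followed the UMP-making enzymes most closely over the 12 libraries are given as a description. The libraries share depth and group, and the highest of 11019 coefficients were taken. For Cad they were 1700017B05Rik (Pearson r 0.97, Spearman rho 0.98), Rbm38 (0.97, 0.95) and Gcn1l1 (0.97, 0.92), with r between 0.96 and 0.97 when iCT mouse 1 was left out. For Dhodh they were Dixdc1 (0.83, 0.85), Tuba1b (0.82, 0.72) and Gpd1l (0.81, 0.84), and without iCT mouse 1 their r was 0.83, 0.81 and 0.88. Dixdc1 was near the floor, with a mean of 0.915 FPKM. For Umps they were Eif2b5 (0.94, 0.77), Pop1 (0.94, 0.82) and Rexo4 (0.93, 0.89), and without iCT mouse 1 their r was 0.83, 0.85 and 0.80.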

How the data were processed

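RNA from 12 sorted leukaemia samples was extracted with an RNeasy micro kit and made into libraries with NEB kits, per the labels' protocols. The authors deposited 1 Cufflinks gene table per library in FPKM with lower and upper confidence bounds, per the file headers. These bounds were taken as 95% intervals, a level that the names of their columns do not give. The submitters' processing notes name STAR, Cufflinks and the build mm9. The sources used here give no versions, annotation, strand handling or treatment of multi-mapping reads. Of 23070 single-locus symbols shared with GENCODE M21, 22932 (99.4%) overlapped the GRCm38 gene, so coordinates are given as GRCm38. FPKM depends on a library's total, on gene length and on how shared reads were divided. Implied fragments were estimated per gene by dividing the FPKM by the SE that its interval implies and squaring. Of low values, 35.1% to 42% per library gave whole fragments within 0.02, so no count test was run.

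Groups came from sample titles, and each title names its own mouse. Of the 24883 entries 2 with a failed estimate were left out, and 0 library pairs were identical. The 11019 genes that reached an FPKM of 1 in 3 or more libraries were tested as log2(FPKM + 1) in limma 3.58.1 (R 4.3.3). The fit held all 12 libraries with group as its term and a variance trend, with Benjamini-Hochberg adjustment over all tested genes and a threshold of 0.05. Changes on this scale understate those of low genes. Ratios of gene pairs were compared by exact permutation tests, which had not been planned. The fitting procedure was tested on simulated data. The alternatives were a pseudocount of 0.1, no filter, a filter at FPKM 5, median-of-ratios and quantile scaling, a fit of the compared groups alone, array weights (with statmod 1.5.0), a block on mouse number, no variance trend, and each library left out. Removal of length and GC trends, with values for 96.2% of tested genes, was added after seeing the data. All 10 members were named. From each gene group at most 4 genes past the threshold, or otherwise at most 2 with the smallest p, could be named, and for Cad, Dhodh and Umps the 3 most similar genes. A gene that this rule names is not reported here. Members and gene groups were chosen with earlier results of these data known.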

Additional observations from a re-analysis of the deposited data

Results flagged for a closer look

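Of 20 sets of values (10 genes in the 5 vehicle mice and in the 4 relapse mice), 2 had an end value far from the rest by Dixon's criterion, which chance meets in about 1 of 20 sets. Dhodh in relapse mouse 4 was at 14.6 FPKM, under 16.7 to 17 in the other relapse mice, and the gap was 0.867 of the group's range (n = 4). Tyms in vehicle mouse 3 was at 32 FPKM, above 25.2 to 26.8 in the other vehicle mice, and the gap was 0.756 of the range (n = 5). The 3 iCT mice were too few for this criterion.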

How the results depend on the processing

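Over the settings that kept every library, 264 member estimates kept direction and side of the threshold, 9 came to pass it, 4 no longer passed it and 23 changed sign. The calls over all genes in iCT against vehicle (1060, 365 higher and 695 lower) were 457 with array weights, 351 in a fit of the compared groups alone and 628 higher with 625 lower after length and GC removal. Median-of-ratios scaling gave 496 higher and 616 lower, and quantile normalization 493 and 606. In relapse against iCT (1071, 729 higher and 342 lower) the counts were 603 and 252, with 492 higher and 514 lower under median-of-ratios scaling, 499 and 643 after length and GC removal and 470 and 429 under quantile normalization. In relapse against vehicle (0, with 1604 at an unadjusted p under 0.05) they were 1 without a filter, 971 with array weights, 612 in the fit of these groups alone and 2 after length and GC removal. The cause of these shifts was not tested. With one library left out, the calls ranged from 569 to 2722 (without iCT mouse 2), 0 to 5, and 529 to 1855 (without iCT mouse 3) in iCT against vehicle, relapse against vehicle and relapse against iCT.

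Members called in iCT against vehicle (1) numbered 2 under median-of-ratios scaling, quantile normalization and length and GC removal. Of all genes, 10.1%, 9.97% and 11.4% passed there. With array weights or in the fit of the compared groups alone 0 members passed, beside 4.15% and 3.27%. In relapse against vehicle (0) 1 member passed with array weights and 1 in the fit of these groups alone, beside 8.81% and 5.65% of all genes. In relapse against iCT (0) 1 passed under median-of-ratios scaling, under quantile normalization and after length and GC removal. The shares of all genes were 9.15%, 8.16% and 10.4%. With one library left out, members called ranged from 0 to 3, stayed at 0, and ranged from 0 to 1. The 3 members passed without iCT mouse 2, beside 24.8% of all genes. In relapse against iCT 1 member passed without vehicle mouse 1 or iCT mouse 3, beside 10% and 17% of all genes.

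Same-numbered libraries of different groups had deviations correlated at -0.091 to 0.099 (10 pairs). Of 12 libraries 0 correlated best with their own number, which vehicle mouse 5, with no same-numbered library, could not do. These values gave no sign that the mouse numbers pair the libraries, but low correlations cannot exclude it. With the replicate block 197, 0 and 372 genes and 0, 0 and 0 members passed in the 3 comparisons, with Cmpk1 at -0.66 (limma adjusted p 0.0963) in iCT against vehicle.

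With every library kept, the following member estimates changed sign. Umps in iCT against vehicle was 0.04 under median-of-ratios scaling, 0.01 under quantile normalization, 0.18 with array weights, 0.02 with the replicate block and 0.08 after length and GC removal, and Ctps was 0.04, 0.01, 0.03, 0.01 and 0.12 under the same settings. After length and GC removal Tyms in iCT against vehicle was 0.08, and Umps in relapse against vehicle was -0.07 (-0.04 under median-of-ratios scaling). In relapse against vehicle Dhodh was 0.02 with array weights and Nme1 0.03 under quantile normalization. In relapse against iCT Umps was -0.09 under median-of-ratios scaling, -0.15 with array weights and -0.16 after length and GC removal, Ctps2 -0.02 under median-of-ratios scaling, -0.04 under quantile normalization and -0.07 after length and GC removal, and Dut -0.10 and -0.13 under median-of-ratios scaling and length and GC removal.

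With one library left out, the estimates that changed sign ranged as follows in iCT against vehicle: Umps from -0.14 to 0.22, Ctps from -0.04 to 0.04, Tyms from -0.19 to 0.04 and Dctd from -0.57 to 0.02. In relapse against vehicle Dhodh ranged from -0.10 to 0.01, Umps from 0.00 to 0.06, Nme1 from -0.10 to 0.04 and Dctd from -0.10 to 0.01. In relapse against iCT Cad ranged from -0.24 to 0.09, Umps from -0.19 to 0.17, Tyms from -0.23 to 0.01, Dctd from -0.07 to 0.52 and Dut from -0.10 to 0.23. Depth limits Dctd most, with 1.5 implied fragments in iCT mouse 1, and the iCT group of 3 mice limits every comparison that uses it.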
